A study of Homo sapiens with 8 samples.

Results

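The 10 genes described here encode the kinases ATM, ATR and DNA-PKcs (PRKDC), which caffeine inhibits at high dose, together with the checkpoint kinases CHEK1, CHEK2 and WEE1, the phosphatase CDC25A, the mediators CLSPN and TOPBP1, and the histone variant H2AX. They are listed by name, with no threshold on their values, were picked with earlier results of these data known, and are 10 of the 62649 gene rows of each library. Poly-A RNA was counted in 8 libraries of human colorectal adenocarcinoma lines in 4 groups of 2. These were SW620 with caffeine, SW620 without treatment, SW480 with caffeine and SW480 without treatment. SW480 was derived from a primary tumour and SW620 from a lymph node metastasis of the same patient. Per the labels, both lines in the form used carried a fluorescent mCherry immunoproteasome fusion (SW620B8-mCherry and SW480-B8mCherry), so that controls and caffeine cultures shared this modification. Per the labels, SW620B8-mCherry cultures received from 30 up to 500 µM caffeine over 72 hours, or were kept in 125 µM for as long as 28 days. Which of these the sequenced libraries received is not stated, and no dose or time is given for SW480. They state at least 2 biological replicates per group. They do not say whether these were grown on separate days.

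The 3 kinases belong to the PI3K-like family. ATM and DNA-PKcs are activated at DNA double-strand breaks, and ATR at single-stranded DNA coated by RPA, where TOPBP1 activates it and CLSPN (claspin) hands the signal to CHK1. CHK1 and CHK2 (CHEK1, CHEK2) inhibit or mark for destruction the CDC25 phosphatases, while WEE1 adds the inhibitory phosphate to CDK1 and CDK2 that CDC25A removes, and H2AX is the histone that the 3 kinases phosphorylate around breaks. Much of this control acts on proteins, and the values below are RNA levels.

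Library totals ran from 15760259 to 23269315 assigned reads, and all 10 genes were well above the level that 3 counts give (0.129 to 0.190 CPM, a read count scaled to its TMM-adjusted library total). Of 12 colon epithelium markers 11 passed the filter on low counts, and their summed level was 12990 to 14390 CPM with caffeine and 10830 to 10890 CPM without it in SW620, and 6569 to 6905 CPM with caffeine and 4631 to 6021 CPM without it in SW480. In SW620 with caffeine 3 of the 11 were higher (KRT19, KRT20 and CDH1) and 3 lower (CDH17, CDX2 and LGR5) by edgeR. Of all tested genes 14.4% passed there. LGR5 had 47.5 CPM with caffeine and 115 CPM in controls. The sum is mostly KRT8, KRT18 and KRT19. None of the 11 passed in SW480, where 3.6% of all tested genes did. The adhesion gene CDH1 was under 1 CPM in every SW480 library, and CDX1 was at 0 in all 8 libraries. The 5 leukocyte markers summed to at most 3.56 CPM in any library. The 7 fibroblast markers summed to 45.9 to 48.6 CPM with caffeine and 37.8 to 40.1 CPM without it in SW620, mostly from LUM, and to 5.92 to 7.49 CPM with caffeine and 6.25 to 6.41 CPM without it in SW480, where LUM was at 0. DCN was at or near 0 and COL3A1 at 0 throughout. The 4 endothelial markers summed to 15.2 to 15.6 CPM with caffeine and 9.52 to 9.62 CPM without it in SW620, and to 1.35 to 1.83 CPM with caffeine and 1.69 to 2.10 CPM without it in SW480. By edgeR 2 of 2 tested endothelial and 1 of 3 tested fibroblast markers were higher in SW620 with caffeine. Neither list had a call in SW480, and no leukocyte marker passed in either line. The part of these markers in the results below was not tested. Mitochondrial genes took 1.63% of the counts in replicate 2 of SW480 with caffeine and up to 6.16% elsewhere. All libraries are bulk RNA, so that fewer cells with a transcript and less of it per cell cannot be told apart.

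Promoter windows were found for 8 of the 10 genes (not WEE1 and PRKDC), in 11 windows. The 3 shown belong to the genes that passed a caffeine test (CLSPN and H2AX) and to CDC25A, a substrate of the pathway. Motif counts had been planned only for genes that passed together in a caffeine comparison, which did not occur. CDC25A did not pass in SW620 (edgeR adjusted p = 0.115), where its adjusted p was the smallest of the 10 after that of CLSPN. Capitals mark, on either strand, the E2F spellings TTTCCCGC, TTTCGCGC, TTTGCCGC and TTTGGCGC, the CHR element TTTGAA and the CCAAT box CCAAT, which reads ATTGG on the other strand. The windows run from 250 bases before to 50 bases after the RefSeq start site on GRCh38.p14, 5′ to 3′ on the gene's own strand, which is the minus strand for all 3, at chr1:35769929-35770228, chr3:48188368-48188667 and chr11:119095416-119095715.
CLSPN: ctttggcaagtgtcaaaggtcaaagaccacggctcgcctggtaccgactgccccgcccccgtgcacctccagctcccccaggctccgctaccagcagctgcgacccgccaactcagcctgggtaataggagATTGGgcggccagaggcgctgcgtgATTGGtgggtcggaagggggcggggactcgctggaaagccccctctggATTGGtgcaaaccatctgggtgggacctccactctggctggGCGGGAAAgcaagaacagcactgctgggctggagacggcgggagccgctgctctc
CDC25A: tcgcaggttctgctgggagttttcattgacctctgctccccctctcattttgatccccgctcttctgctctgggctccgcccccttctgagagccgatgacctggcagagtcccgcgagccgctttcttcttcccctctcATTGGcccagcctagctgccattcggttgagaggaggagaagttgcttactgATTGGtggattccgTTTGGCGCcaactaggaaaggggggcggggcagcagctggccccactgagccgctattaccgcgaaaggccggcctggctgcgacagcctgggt
H2AX: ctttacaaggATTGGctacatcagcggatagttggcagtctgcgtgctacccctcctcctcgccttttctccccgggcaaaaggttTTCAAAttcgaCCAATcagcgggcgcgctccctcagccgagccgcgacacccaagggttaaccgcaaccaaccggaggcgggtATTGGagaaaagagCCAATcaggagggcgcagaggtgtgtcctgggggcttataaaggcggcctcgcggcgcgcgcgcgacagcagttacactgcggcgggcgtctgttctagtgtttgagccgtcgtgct

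The CLSPN window held 1 E2F spelling (TTTCCCGC on the opposite strand, at -5 relative to the start site) and 3 CCAAT boxes. CDC25A held TTTGGCGC at -44 and 2 CCAAT boxes. TOPBP1, whose window is not shown, held TTTCGCGC on the opposite strand at -7 and no CCAAT box. H2AX held no E2F spelling but 1 CHR element and 4 CCAAT boxes. Of 35116 RefSeq windows of the same length, 3.32% held at least 1 E2F spelling, 15.2% a CHR element and 34.6% a CCAAT box. The ATR window held none of the motifs, and the windows of ATM, CHEK1 and CHEK2 held CCAAT boxes only, apart from a CHR element in 1 of the 2 ATM windows. The letters do not overlap one another in the windows shown, and a match is a description of the sequence, not of a bound site.

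Levels between genes were compared per kilobase of annotated exon (CPM per kilobase). The length merges the exons of all annotated transcripts of a gene, at 23972 bases for ATM and 9239 for WEE1. Where it exceeds the length of the RNA made, the value is too low, so the order depends on the annotation. H2AX, an intronless gene of 1614 exon bases, had the highest level of the 10 in every group, at 73.5 and 75.5 CPM per kilobase in SW620 with and without caffeine and at 181 and 115 in SW480 with and without it. PRKDC came next in every group, at 18 and 19.2 CPM per kilobase in SW620 with and without caffeine and 37.3 and 34.3 in SW480 with and without it. ATM was the lowest in every group, at 3.54 and 3.99 CPM per kilobase in SW620 with and without caffeine and 3.05 and 3.74 in SW480 with and without it. The median gene tested lay at 3.25 to 3.37, so that on this measure ATM and ATR were near the middle of the expressed genes and H2AX far above it. Of the other neighbours in the order, CHEK1, CDC25A and TOPBP1 lay between 8.28 and 19.4 CPM per kilobase, and WEE1, CLSPN, CHEK2 and ATR between 3.63 and 8.19. The libraries of neighbours overlapped for CHEK2 and ATR, ATR and CLSPN, and CLSPN and ATM in SW620 with caffeine. In SW620 without it they overlapped for CDC25A and CHEK1, WEE1 and ATR, and ATR and CHEK2. In SW480 they overlapped for WEE1 and CLSPN with caffeine, and for CHEK1 and TOPBP1, TOPBP1 and CDC25A, and ATR and ATM without it.

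**Figure D1:**
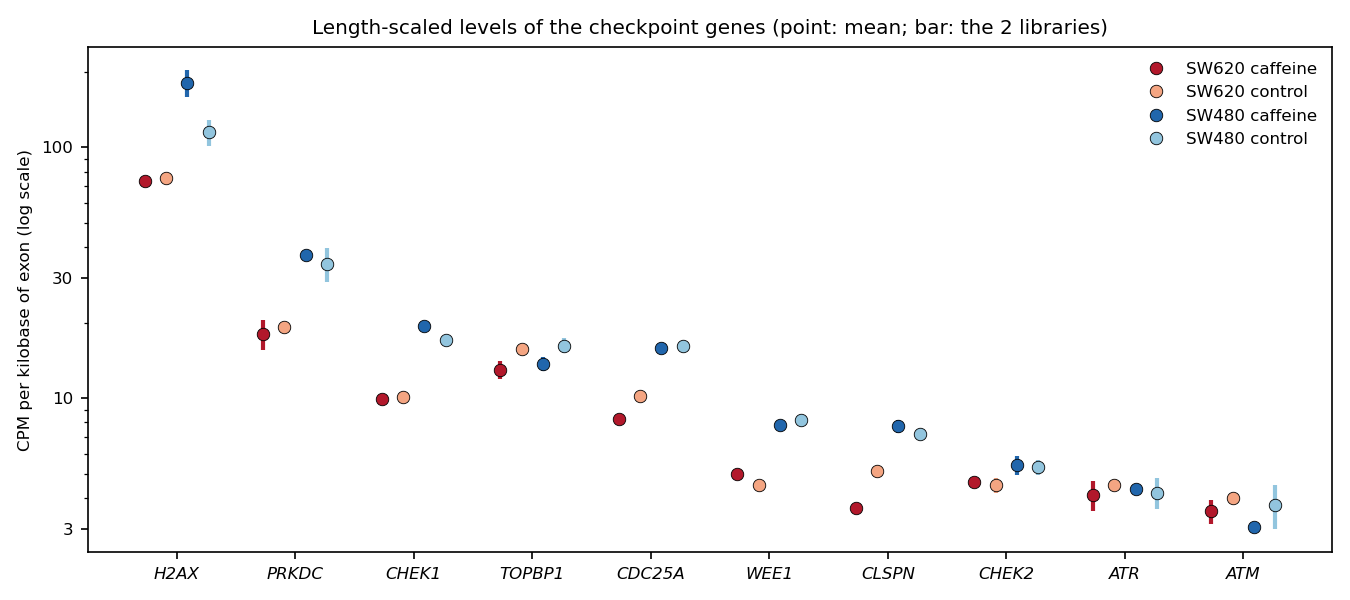
Level of each of the 10 genes in CPM per kilobase of exon on a log axis, as the mean (point) and the range of the 2 libraries (bar) of SW620 caffeine, SW620 control, SW480 caffeine and SW480 control. H2AX stands highest in all 4 groups, at 181 in SW480 with caffeine, and ATM lowest, at 3.05 to 3.99.

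The first question was what caffeine did to these RNAs in each line. In SW620 cells CLSPN was lower with caffeine and the other 9 genes did not pass the test. In SW480 cells H2AX was higher and the other 9 did not pass. So 1 of 10 genes passed in SW620, where 14.4% of the 17671 tested genes passed (8.1% higher and 6.25% lower), and 1 of 10 in SW480, where 3.6% passed (1.67% higher), at an adjusted p under 0.05 in edgeR's quasi-likelihood test. The median log2 fold change of the 10 was -0.11 in SW620 and 0.04 in SW480, against -0.01 and 0 over all tested genes.

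Among the kinases, ATM, the double-strand break kinase, had 75.4 and 94.4 CPM in SW620 with caffeine and 96.8 and 94.4 CPM in SW620 controls. In SW480 it had 74.0 and 72.1 CPM with caffeine and 108 and 71.7 CPM in controls. The 2 control libraries of SW480 were the farthest apart, and the groups overlapped in both lines. Its log2 fold change was -0.17 ± 0.16 (SE; adjusted p = 0.539) in SW620 and -0.30 ± 0.16 (adjusted p = 0.337) in SW480 by edgeR. Without control replicate 2 the SW480 estimate was -0.58 (adjusted p = 0.0226) and without control replicate 1 it was 0.03 (adjusted p = 0.972), so that the choice of control library decided it.

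ATR, the replication stress kinase, had 44.4 and 58.2 CPM in SW620 with caffeine and 56.5 and 56.4 CPM in SW620 controls. The SW480 values were 54.1 and 54.6 CPM with caffeine and 59.9 and 44.9 CPM in controls. The groups overlapped in both lines, and the log2 fold changes were -0.14 ± 0.15 in SW620 and 0.05 ± 0.16 in SW480 (edgeR adjusted p = 0.609 and 0.899). Its 95% intervals were -0.47 to 0.19 and -0.28 to 0.38.

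PRKDC, the catalytic subunit of DNA-PK in end joining, had 240 and 315 CPM in SW620 with caffeine and 305 and 285 CPM in SW620 controls. The SW480 values were 565 and 587 CPM with caffeine and 610 and 449 CPM in controls. Every SW480 library was above every SW620 library, and within each line the caffeine and control libraries overlapped. The caffeine estimates were -0.09 ± 0.15 in SW620 and 0.12 ± 0.15 in SW480 on the log2 scale (edgeR adjusted p = 0.755 and 0.709).

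The replicates of 2 groups differed along with exon length, which touches these long genes and the short H2AX. In SW480 controls, replicate 1 minus replicate 2 had a median log2 difference of -0.39 for genes of up to 2000 exon bases, -0.13 up to 5000, 0.07 up to 10000 and 0.23 above that. In SW620 with caffeine the order was the opposite, at 0.19, 0.04, -0.09 and -0.18. In the other 2 groups each class stayed within 0.03 of 0. PRKDC, ATM and ATR differed by 0.43, 0.58 and 0.40 between the SW480 control replicates and by -0.39, -0.33 and -0.39 between the SW620 caffeine replicates. MTOR, SMG1 and TRRAP, the other long genes of the kinase family, differed by 0.33, 0.44 and 0.44 in the first pair and by -0.29, -0.41 and -0.52 in the second. The median caffeine log2 fold change also ran with exon length. It went from 0.07 (up to 2000 bases) to -0.06 (over 10000 bases) in SW480 and from -0.08 to 0.06 in SW620. H2AX, of 1614 exon bases, is in the shortest class. The part of this gradient in the caffeine results was not tested directly, but an exon length term for each library, added after the data were seen, is given beside the called genes.

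**Figure D2:**
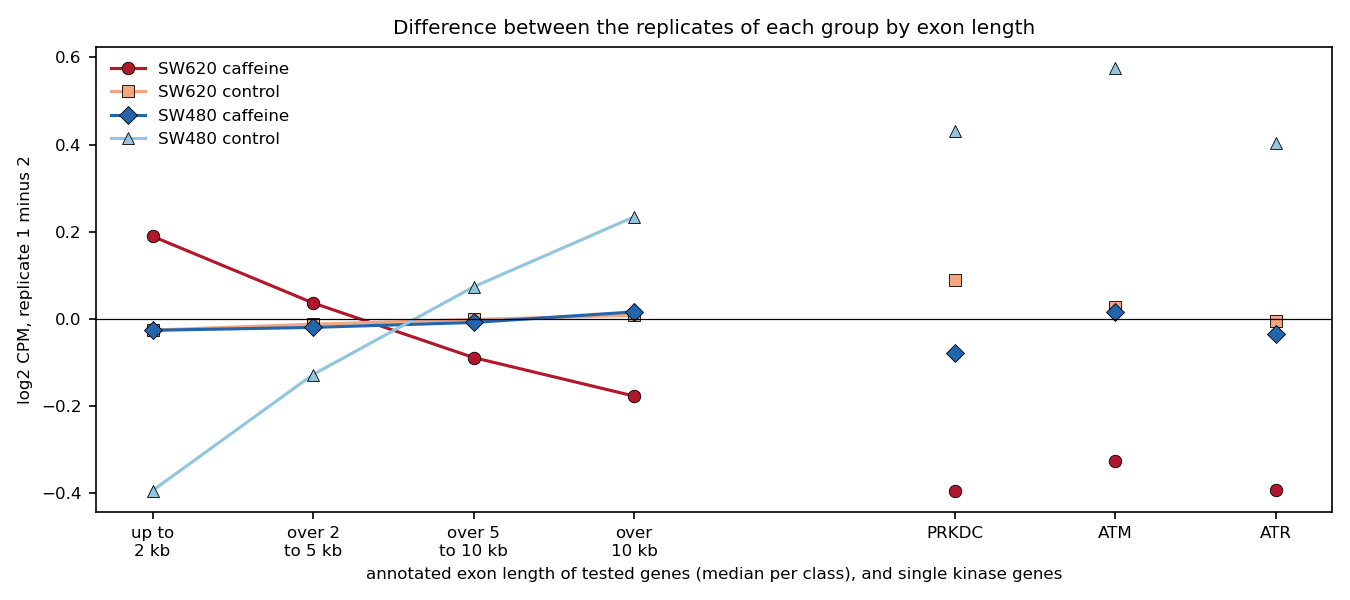
Median log2 CPM difference between replicates 1 and 2 of each group for tested genes in 4 classes of exon length (lines), and the same difference for PRKDC, ATM and ATR (points). SW480 control runs upward from -0.39 to 0.23 and SW620 caffeine downward from 0.19 to -0.18, with the 3 kinase genes at the far end of each, while the other 2 groups lie along 0.

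Of the mediators, CLSPN, the adaptor through which ATR reaches CHK1, had 19.9 and 19.4 CPM in SW620 with caffeine and 27.8 and 27.3 CPM in SW620 controls. SW480 cells had 44.3 and 39.1 CPM with caffeine and 37.2 and 40.7 CPM in controls. Both SW620 caffeine libraries were below both controls, with the replicates closer to each other than to the other group, and the SW480 groups overlapped. The log2 fold change in SW620 was -0.49 ± 0.13 (95% interval -0.77 to -0.20; edgeR adjusted p = 0.0220) and in SW480 it was 0.10 ± 0.13 (adjusted p = 0.726). The value moved little when any 1 of the 4 SW620 libraries was left out (-0.50 to -0.47), but the call was then lost, at an adjusted p of 0.0924 without caffeine replicate 1, 0.135 without caffeine replicate 2, 0.173 without control replicate 1 and 0.150 without control replicate 2. With the exon length term it was -0.49 (adjusted p = 0.0113).

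TOPBP1, the ATR activator, had 86.8 and 103 CPM in SW620 with caffeine and 115.3 and 114.6 CPM in SW620 controls. The SW480 values were 106 and 93.7 CPM with caffeine and 126 and 110 CPM in controls. In each line both caffeine libraries were below both controls. The log2 fold changes were -0.28 ± 0.13 in SW620 and -0.24 ± 0.13 in SW480 (edgeR adjusted p = 0.169 and 0.315), and -0.26 ± 0.10 over both lines in 1 additive fit (unadjusted p = 0.0202, adjusted p = 0.166).

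Of the effector kinases, CHEK1, which carries the ATR signal, had 62.7 and 67.2 CPM in SW620 with caffeine and 63.6 and 68.7 CPM in SW620 controls. The SW480 values were 131 and 124 CPM with caffeine and 113 and 111 CPM in controls. The groups overlapped in SW620, and in SW480 both caffeine libraries were above both controls. Neither log2 fold change passed (-0.03 ± 0.12 in SW620 and 0.19 ± 0.12 in SW480, edgeR adjusted p = 0.928 and 0.400).

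CHEK2, the ATM effector kinase, had 20.5 and 21.04 CPM in SW620 with caffeine and 21.6 and 18.8 CPM in SW620 controls. SW480 cells had 22.1 and 26.4 CPM with caffeine and 22.1 and 25.5 CPM in controls. The groups overlapped in both lines, and the estimates were 0.04 ± 0.15 in SW620 and 0.03 ± 0.15 in SW480 (edgeR adjusted p = 0.902 and 0.940). Its listed pseudogenes CHEK2P2, CHEK2P3, CHEK2P4 and CHEK2P5 had 0 counts in every library.

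WEE1, which holds CDK1 and CDK2 inactive, had 44.4 and 47.7 CPM in SW620 with caffeine and 39.8 and 43.7 CPM in SW620 controls. The SW480 values were 72.3 and 71.8 CPM with caffeine and 75.9 and 75.4 CPM in controls. The caffeine libraries were above the controls in SW620 and below them in SW480, by little in each. The log2 fold changes of 0.14 ± 0.12 and -0.07 ± 0.12 did not pass (edgeR adjusted p = 0.497 and 0.807), nor did their difference of 0.21 ± 0.17 (adjusted p = 0.510).

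CDC25A, the phosphatase that opposes WEE1 and is degraded after CHK1 phosphorylation, had 33.2 and 34.9 CPM in SW620 with caffeine and 42.5 and 41.7 CPM in SW620 controls. In SW480 it had 65.8 and 64.3 CPM with caffeine and 67.7 and 65.5 CPM in controls. Both SW620 caffeine libraries were below both controls, and the SW480 libraries overlapped. The log2 fold change in SW620 was -0.30 ± 0.12 (95% interval -0.56 to -0.04) and missed the threshold (edgeR adjusted p = 0.115). A fit of the 4 SW620 libraries alone passed CDC25A (-0.30, adjusted p = 0.0361) and TOPBP1 (-0.27, adjusted p = 0.0441) as well as CLSPN. That fit passed 4545 of the 17671 tested genes, against 2537 in the fit of all 8 libraries. In SW480 the log2 fold change of CDC25A was -0.03 ± 0.12 (adjusted p = 0.921).

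H2AX, the histone variant phosphorylated at breaks, had 115 and 122 CPM in SW620 with caffeine and 123 and 121 CPM in SW620 controls. In SW480 it had 256 and 329 CPM with caffeine and 163 and 208 CPM in controls. Both SW480 caffeine libraries were above both controls, with replicate 2 the higher library in each group, and the SW620 groups overlapped. The log2 fold change in SW480 was 0.66 ± 0.14 (95% interval 0.36 to 0.95; edgeR adjusted p = 0.0177), a 1.58-fold higher level, and in SW620 it was -0.04 ± 0.14 (adjusted p = 0.896). The SW480 call was lost without caffeine replicate 2 (0.47, adjusted p = 0.248), which is also the library with 1.63% mitochondrial counts, and without control replicate 1 (0.49, adjusted p = 0.113). With the exon length term it was 0.60 (adjusted p = 0.00675).

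**Figure D3:**
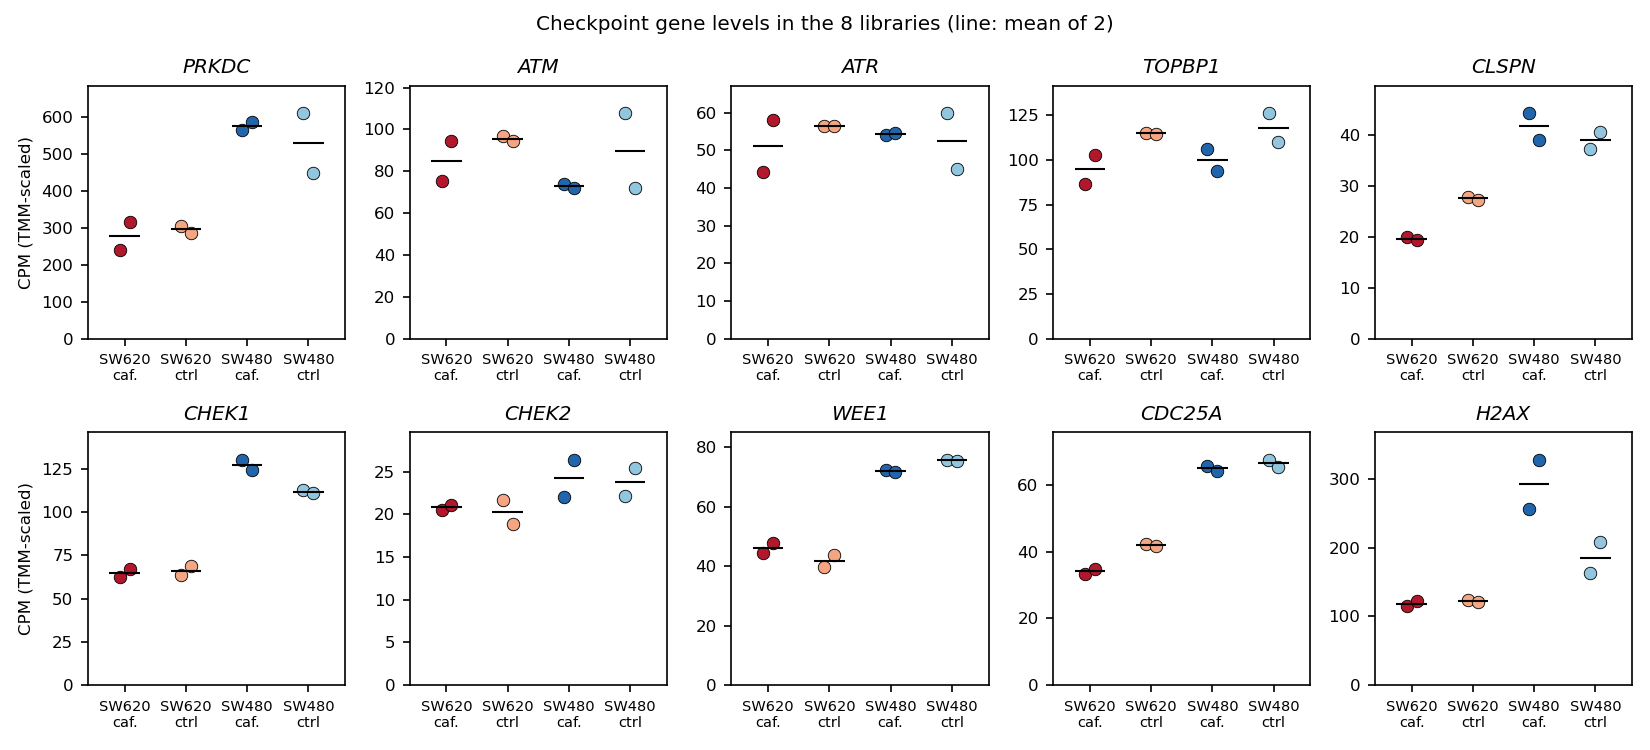
CPM of the 10 genes in each of the 8 libraries (points) with the mean of each group (line), for SW620 caffeine, SW620 control, SW480 caffeine and SW480 control, on axes that start at 0. CLSPN with caffeine (19.9 and 19.4 CPM) lies below its controls in SW620, H2AX with caffeine (256 and 329 CPM) above its controls in SW480, and PRKDC, CHEK1, WEE1, CDC25A, CLSPN and H2AX are lower in all SW620 libraries than in any SW480 library.

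A second question was whether the lines differed in their response. The caffeine response of H2AX was lower in SW620 than in SW480, with a log2 difference (SW620 minus SW480) of -0.70 ± 0.20 (95% interval -1.12 to -0.28; edgeR adjusted p = 0.0438). It was the only 1 of the 10 to pass, where 6.71% of all tested genes did, 4.24% with a higher and 2.47% with a lower response in SW620. The response of CLSPN differed by -0.59 ± 0.19 and missed the threshold (adjusted p = 0.0692). The H2AX call was lost with DESeq2's size factors (adjusted p = 0.0514), in limma-voom (0.0517), without any 1 of the SW620 libraries (0.123 and 0.0991 without caffeine replicates 1 and 2, 0.163 and 0.140 without control replicates 1 and 2) and without either SW480 caffeine replicate 2 (0.182) or SW480 control replicate 1 (0.104). With the exon length term the H2AX difference was -0.56 (adjusted p = 0.0431) and that of CLSPN -0.60 (adjusted p = 0.0351), and without SW480 control replicate 2 the CLSPN difference also passed (-0.62, adjusted p = 0.0456). The other 8 differences lay between -0.27 and 0.21.

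In an additive fit over both lines, 0 of the 10 genes passed, where 3.36% of all tested genes did. At an unadjusted p under 0.05 there were 2 of the 10, TOPBP1 and H2AX, and 3425 of all 17671 tested genes. H2AX stood at 0.31 ± 0.14 (edgeR adjusted p = 0.249). Each of the 15 other settings, DESeq2's Wald test and limma-voom among them, also gave 0. TOPBP1 was the only 1 of the 10 whose 4 caffeine libraries all lay below the 4 controls. For PRKDC, CHEK1, WEE1, CDC25A, CLSPN and H2AX this could not occur, since every SW480 library lay above every SW620 library. The share of all tested genes whose libraries separated in this way, or 2 against 2 within a line, was not counted.

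**Figure D4:**
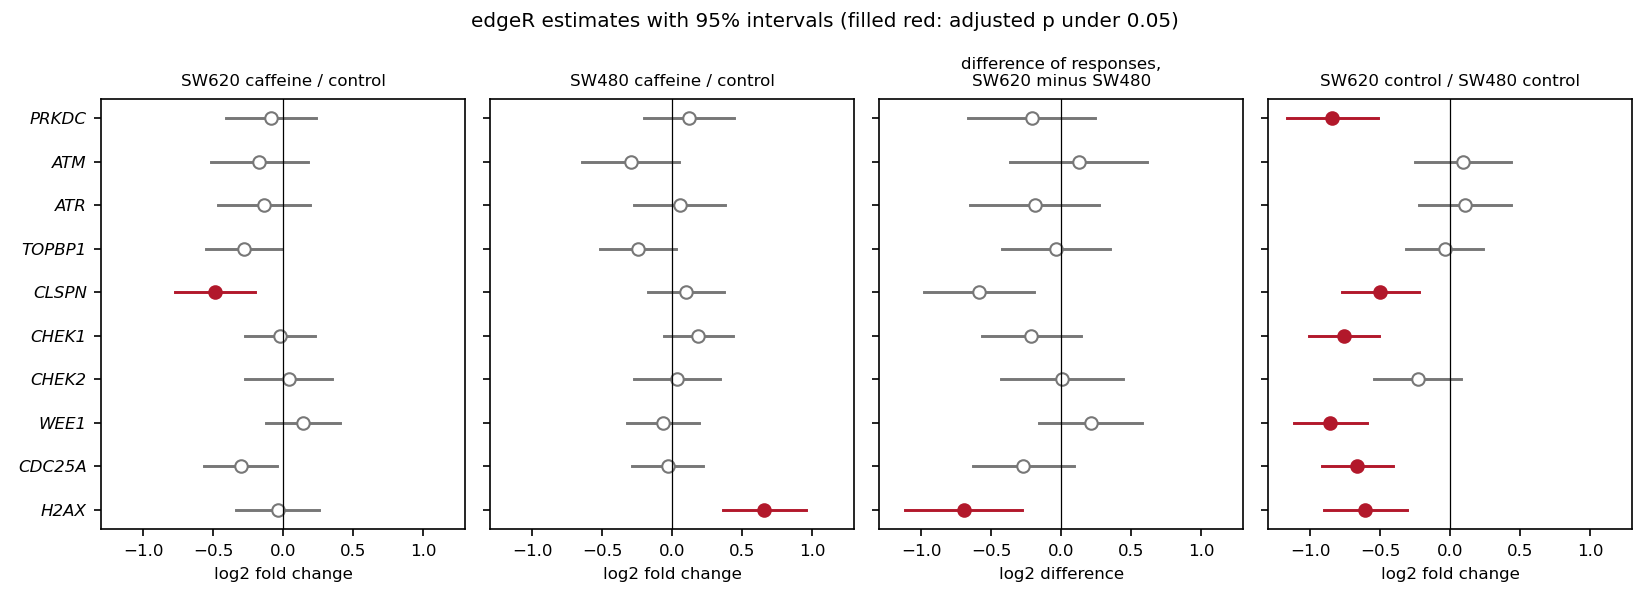
edgeR log2 fold changes with 95% intervals of the 10 genes for caffeine in SW620, caffeine in SW480, the difference of these responses and the untreated SW620 against the untreated SW480 line. Filled red points passed an adjusted p of 0.05: CLSPN (-0.49) in SW620, H2AX (0.66) in SW480, H2AX (-0.70) in the difference, and 6 genes between the lines.

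The untreated lines differed more than caffeine and control did. Of the 10 genes 6 were lower in SW620 controls than in SW480 controls and 0 were higher, where 65.6% of all tested genes passed, 32.6% lower and 33% higher. WEE1 had 41.8 ± 2.74 CPM in SW620 controls and 75.6 ± 0.37 CPM in SW480 controls (SD, n = 2 each; log2 fold change -0.86 ± 0.12, edgeR adjusted p = 1.18e-05). PRKDC had a log2 fold change of -0.84 ± 0.15 (295 ± 13.99 CPM in SW620 controls and 529 ± 114 CPM in SW480 controls; adjusted p = 0.000131) and CHEK1 at -0.76 ± 0.12 (66.1 ± 3.57 CPM in SW620 controls and 112 ± 1.25 CPM in SW480 controls; adjusted p = 2.86e-05). CDC25A was lower by the estimate of -0.66 ± 0.12 (adjusted p = 0.000142), H2AX by that of -0.61 ± 0.14 (0.00119) and CLSPN by that of -0.50 ± 0.13 (0.00306). These 6 calls held in all 15 alternative settings.

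The other 4 did not pass between the lines. CHEK2 had both SW620 control libraries below both SW480 ones (-0.23 ± 0.15, edgeR adjusted p = 0.173), and ATM (0.09 ± 0.16), ATR (0.11 ± 0.16) and TOPBP1 (-0.04 ± 0.13) overlapped. Without SW480 control replicate 1 ATM stood at 0.41 (adjusted p = 0.0230), and without replicate 2 at -0.20 (adjusted p = 0.255). Cell cycle genes moved with this difference: 12 of 14 G2/M markers were lower in SW620 controls (median -1.03), and of 16 G1/S markers 9 were lower and 4 higher (median -0.52). Of 14 genes of CDK control 11 were lower and 1 higher (median -0.77). Their part in the levels of the 6 genes was not tested.

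By a measure of likeness (the root mean square difference of mean-centred log2 CPM over the 8 libraries), the tested genes most like PRKDC were INTS3 (0.0710), DIDO1 (0.0772) and TRRAP (0.0876), the last a kinase-family gene itself. CHEK1 was most like DLAT (0.0468), TSN (0.0560) and HMGCS1 (0.0639), and WEE1 most like SEH1L (0.0531), WFS1 (0.0539) and PTPN9 (0.0549). The closest to CDC25A were SLC35B4 (0.0427), HSPA14 (0.0430) and AASDHPPT (0.0503), and to H2AX FBXL6 (0.0892), BANF1 (0.0911) and NSUN5 (0.103). Among the 3 closest to CLSPN were HNRNPAB (0.0820) and CERK (0.0878). For scale, the 6 genes themselves varied by 0.38 to 0.54 around their own means on this measure. It takes in the difference between the untreated lines, which 65.6% of all tested genes showed. It also takes in the replicate differences along exon length, in which PRKDC and TRRAP went the same way. Shared regulation was not tested.

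The rest of the pathway is given by lists, here and in the following paragraphs. Their counts are to be read beside the share of all tested genes that passed. It was 14.4% in SW620 (8.1% higher and 6.25% lower) and 3.6% in SW480 (1.67% higher). Of 8 other PI3K-like kinases and chaperones of the family, 1 was lower in SW620 with caffeine, the ATPase RUVBL1 (-0.43 ± 0.12, edgeR adjusted p = 0.0245), and 0 passed in SW480. Their medians were -0.03 and 0.07. MTOR had -0.38 ± 0.14 in SW620 (adjusted p = 0.0941) and -0.01 ± 0.14 in SW480 (adjusted p = 0.987). Of 12 genes that recruit ATR or sense replication stress, RPA2, a subunit of the single-strand binding complex, was lower in SW620 (-0.42 ± 0.12, adjusted p = 0.0291) and TIPIN, of the fork protection complex, higher in SW480 (0.63 ± 0.16, adjusted p = 0.0430). Of 15 genes of homologous recombination and Fanconi anaemia, XRCC3, which acts in repair of breaks by recombination, was lower in SW620 (-0.51 ± 0.16, adjusted p = 0.0421) and 0 passed in SW480. RUVBL1, RPA2 and XRCC3 were lost without any 1 of the SW620 libraries (adjusted p of at least 0.0676), XRCC3 also in limma-voom (0.0512), and TIPIN without any 1 library but SW480 control replicate 2 (adjusted p of at least 0.0533).

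None of the 11 break sensing and chromatin mediators and none of the 9 end joining genes passed in either line by edgeR. The log2 fold changes of the 11 ran from -0.24 to 0.45 in SW620 and from -0.09 to 0.47 in SW480, and those of the 9 from -0.22 to 0.47 and from -0.13 to 0.56. At an unadjusted p under 0.05 there were 1 of 11 and 1 of 9 in SW620 and 3 of 11 and 3 of 9 in SW480. Of all 17671 tested genes, 4938 in SW620 and 3428 in SW480 had such a p. The same totals stand beside the unadjusted counts that follow. DESeq2's Wald test and limma-voom also called 0 of these 11 and 9 genes in each line. For the lists above with 0 calls in SW480, the counts at an unadjusted p under 0.05 were 1 of 8 for the kinase family and its chaperones (1 called by DESeq2's Wald test and 0 by limma-voom) and 6 of 15 for homologous recombination and Fanconi anaemia (0 by either tool).

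Downstream, 7 of 14 genes of CDK control were higher and 0 lower in SW620 with caffeine (median 0.37, with CCNE1 at -0.40 ± 0.20, CCNE2 at -0.36 ± 0.24 and PKMYT1 at -0.09 ± 0.19 not passing), against 0 of 14 in SW480 by edgeR (median 0.20), where 6 had an unadjusted p under 0.05 and DESeq2's Wald test and limma-voom called 0. CDC25C, the phosphatase that activates CDK1 at mitotic entry, had 23.9 and 20.2 CPM in SW620 with caffeine and 8.70 and 8.67 CPM in SW620 controls, and 40.0 and 42.2 CPM in SW480 with caffeine and 29.6 and 32.6 CPM in SW480 controls. Its caffeine libraries were above the controls in both lines, with a log2 fold change of 1.34 ± 0.15 in SW620 (edgeR adjusted p = 1.61e-05) and 0.40 ± 0.13 in SW480 (adjusted p = 0.111). The mitotic kinase AURKA (0.68 ± 0.12), cyclin A2 (CCNA2, 0.67 ± 0.13) and the mitotic kinase PLK1 (0.63 ± 0.12) followed in SW620. CDC25C and AURKA passed in SW620 under every alternative, and CCNA2 and PLK1 in all but the fit without SW620 control replicate 1 (adjusted p = 0.0633 and 0.0738), where 3 of the 14 genes passed. With SW620 control replicate 2 left out, 4 of the 14 passed.

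The cell cycle phase markers were read in the same comparison in which CLSPN was lower. In SW620 with caffeine 13 of 14 G2/M markers were higher (median 0.61), led by the checkpoint kinase BUB1 (0.94 ± 0.12, edgeR adjusted p = 6.36e-05) and the activator of the anaphase complex CDC20 (0.95 ± 0.13, adjusted p = 0.000102). The summed G2/M level was 2359 to 2468 CPM with caffeine and 1549 to 1570 CPM in controls. Of 16 G1/S markers 4 were lower and 1 higher there, with the sliding clamp PCNA at -0.88 ± 0.13 (adjusted p = 0.000207), the transcription factor E2F1 at -0.72 ± 0.16 (0.00516), the helicase subunit MCM6 at -0.56 ± 0.11 (0.00346) and the reductase subunit RRM2 at 0.52 ± 0.12 (0.00851). Their summed level was 2084 to 2173 CPM with caffeine and 2631 to 2663 CPM in controls. The remaining lower gene was GINS2 (-0.63 ± 0.16, adjusted p = 0.0149), a helicase subunit. PCNA, BUB1 and CDC20 passed in SW620 under every alternative. The part of these markers in the CLSPN result was not tested. Without 1 SW620 library, 10 (caffeine replicate 1), 7 (caffeine replicate 2), 6 (control replicate 1) and 6 (control replicate 2) of the 14 G2/M markers passed, and 3, 3, 2 and 2 of the 16 G1/S markers.

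In SW480, where H2AX was higher, 0 of 14 G2/M markers passed (median 0.15, 2 at an unadjusted p under 0.05 and 0 by DESeq2's Wald test or limma-voom) and 3 of 16 G1/S markers were higher, the thymidylate synthase gene TYMS (0.65 ± 0.13, edgeR adjusted p = 0.0161), RRM2 (0.50 ± 0.12, adjusted p = 0.0312) and GINS2 (0.66 ± 0.16, adjusted p = 0.0331). The G1/S sum was 3948 to 4458 CPM with caffeine and 3422 to 3859 CPM in controls, and the G2/M sum 3350 to 3571 CPM with caffeine and 2935 to 3119 CPM in controls. Their part in the H2AX result was not tested. No G1/S marker passed when SW480 caffeine replicate 2 or SW480 control replicate 1 was left out, the fits in which H2AX also missed the threshold and in which the calls over all genes were 50 and 180, against 636 with all libraries. RRM2 was also lost in the separate fit (adjusted p = 0.0825) and without either SW620 control (0.0677 and 0.0676), and GINS2 without SW480 caffeine replicate 1 (0.0550).

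Between the lines, the caffeine responses of 5 of the 16 G1/S markers were lower in SW620 and those of 2 of the 14 G2/M markers and 2 of the 14 CDK control genes were higher. Of all tested genes 2.47% had a lower and 4.24% a higher response in SW620. PCNA differed by -0.96 ± 0.18 (edgeR adjusted p = 0.00380), GINS2 by -1.28 ± 0.23 (0.00282) and BUB1 by 0.90 ± 0.17 (0.00367), and these 3 differences passed under every alternative.

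**Figure D5:**
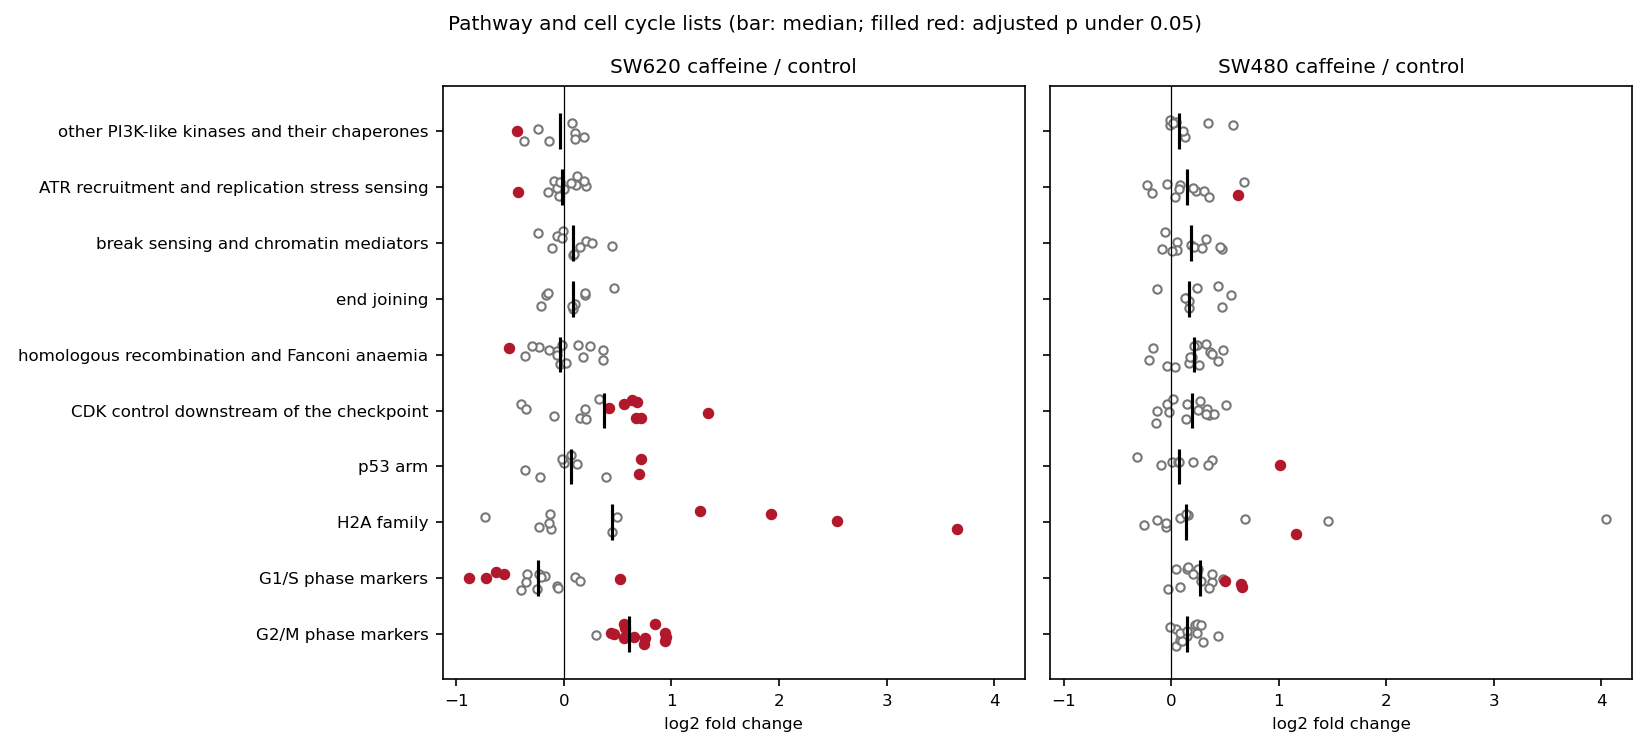
edgeR log2 fold changes with caffeine of the tested genes in each list, in SW620 and SW480, with the list's median as a bar and genes at an adjusted p under 0.05 in filled red. In SW620 the medians farthest to the right of 0 are those of the G2/M list (0.61), the H2A family (0.45) and the CDK control list (0.37). There 3 of the 14 CDK control genes lie to the left of 0 without passing, and 6 of the 11 tested H2A genes lie to its right. In SW480 every list has its median to the right of 0, the largest at 0.26 (G1/S). The point near 4 in the H2A family in SW480 is H2AC12, whose SW480 controls had 0 counts.

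Of the p53 arm, the stress-induced SESN2 had 20.98 and 20.4 CPM in SW480 with caffeine and 10.7 and 9.86 CPM in SW480 controls (1.01 ± 0.14, edgeR adjusted p = 0.00121) and was the only 1 of 9 to pass there. In SW620 it had -0.22 ± 0.13 (adjusted p = 0.270), and the difference of -1.23 ± 0.19 passed (adjusted p = 0.000980). In SW620 the CDK inhibitor CDKN1A (0.71 ± 0.18, adjusted p = 0.0152) and the cell death gene BBC3 (0.69 ± 0.13, adjusted p = 0.00218) were higher. CDKN1A had 7.46 ± 1.08 CPM in SW620 with caffeine and 4.53 ± 0.75 CPM in SW620 controls, against 90.8 ± 5.2 CPM in SW480 with caffeine and 86.8 ± 7.9 CPM in SW480 controls (SD, n = 2 each). CDKN1A was lost without SW620 caffeine replicate 1 (adjusted p = 0.133) or control replicate 1 (0.213), and BBC3 without control replicate 2 (0.0618).

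Of 18 other H2A genes 11 passed the filter on low counts. H2AC6, a gene of the replication-dependent clusters, was higher with caffeine in both lines, with 175 and 165 CPM in SW620 with caffeine against 42.3 and 46.7 CPM in SW620 controls, and 25.3 and 20.9 CPM in SW480 with caffeine against 9.50 and 11.03 CPM in SW480 controls. The log2 fold changes were 1.93 ± 0.14 in SW620 (edgeR adjusted p = 1.80e-07) and 1.16 ± 0.15 in SW480 (adjusted p = 0.000694), and both passed under every alternative. H2AC8, H2AC12 and H2AC13 were also higher in SW620, at averages of 3.34, 0.723 and 0.927 CPM with caffeine and 1.38, 0.0504 and 0.151 CPM in controls, and each lost its call without 1 or more SW620 libraries. Transcripts of the replication-dependent histone genes mostly lack a poly-A tail, and the libraries were made from poly-A RNA, so that these values count the polyadenylated part. H2AX RNA occurs in both forms, and the same limit holds for it.

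The genes overlap others in the annotation (GENCODE 29, GRCh38). ATR (chr3:142449235-142578826) shares 2048 exon bases, or 16.4%, with the opposite-strand pseudogene AC109992.1, CHEK2 (chr22:28687743-28742422) 301 bases with HSCB and CLSPN (chr1:35720218-35769967) 280 bases with AL354864.1, both on the opposite strand. The kit keeps strand, but the strand setting of the counting is not given in the sources used here, so reads in these stretches cannot be assigned with certainty. The other overlaps of the 10 genes were of 143 bases or fewer. ATM lies at chr11:108222484-108369102 on the plus strand, CHEK1 at chr11:125625136-125676255 and WEE1 at chr11:9573681-9593457 on the same strand, PRKDC at chr8:47773108-47960183, CDC25A at chr3:48157146-48188402, TOPBP1 at chr3:133598175-133662380 and H2AX at chr11:119093854-119095467 on the minus strand.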

How the data were processed

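Poly-A RNA was sequenced as single-end reads of 75 bp from directional libraries, per the labels. The deposited files hold raw counts per Ensembl gene, made by the authors with Trim Galore, STAR 2.7.3a and featureCounts 2.0.5 on hg38, per the submitters' processing notes. The annotation release and strand setting are not given in the sources used here. The 12 assignment totals of each file were left out (ambiguous reads were 7.36% to 8.37% of the file total). Symbols were matched for 62625 of 62649 gene IDs, and exon lengths and coordinates came from GENCODE 29. Promoter windows came from RefSeq (GRCh38.p14).

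Counts were filtered (17671 genes kept) and fitted with edgeR 4.0.16 in R 4.3.3: TMM scaling, 4 group means over all 8 libraries, the quasi-likelihood test and Benjamini-Hochberg adjustment over all tested genes. Calls had an adjusted p under 0.05. The spread between replicates was 10.5% (biological coefficient of variation), and p-values cover the spread between these libraries. A gene with no reads could still have up to 3 at 95%, for counting error only. Alternatives were DESeq2's size factors and DESeq2 1.42.0, limma-voom (limma 3.58.1), no filter, a replicate block, no mitochondrial genes, separate lines, each library left out and, added after the data were seen, an exon length term per library. Replicates differed by more than sampling noise, and unequally. The chi-square of their counts per degree of freedom was 2.90 in SW620 controls and 10.1 in SW620 with caffeine. It was 19.8 in SW480 controls and 39.7 in SW480 with caffeine. The fit of all 8 libraries shares the spread over the groups, and the counts of calls in both lines rest on it. The genes and lists were chosen with earlier results of these data known. Of each list, up to 4 called genes with the smallest adjusted p per caffeine contrast are named. MTOR, TELO2, GINS2 in SW620 and the list genes named for a difference between the lines were chosen after their values were seen. For each gene called in any comparison, the 3 tested genes (mean log2 CPM of at least 1) most like it are named, except 1 that is not reported here.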

Additional observations from a re-analysis of the deposited data

Results flagged for a closer look

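The caffeine responses of the 2 lines differed for 1 of the 10 genes and for 13 of 119 tested genes of the pathway and cell cycle lists, by edgeR's test of the difference itself (log2, SW620 minus SW480, adjusted p under 0.05), where 6.71% of all tested genes did. H2AX differed by -0.70. Of the kinase family's partners and repair genes, TELO2, a chaperone of the PI3K-like kinases, differed by -0.82 and XRCC3 by -0.84. Of CDK control and the G2/M markers, CDC25C differed by 0.94, AURKA by 0.66, BUB1 by 0.90 and the spindle gene HMMR by 0.67. Of the G1/S markers, GINS2 differed by -1.28, E2F1 by -0.9995, PCNA by -0.96, MCM6 by -0.71 and TYMS by -0.71. SESN2 of the p53 arm differed by -1.23 and H2AC6 of the H2A family by 0.77. Of these 14 differences, those of BUB1, GINS2, PCNA and SESN2 passed under every alternative, and the other 10 were lost in at least 1 fit that left out a library. With TELO2, neither line's own response passed (-0.24 ± 0.17 in SW620, adjusted p = 0.367, and 0.58 ± 0.16 in SW480, adjusted p = 0.0590).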

How the results depend on the processing

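The 6 calls between the untreated lines held in all 15 alternatives. H2AX in SW480 passed in 14 of 16 and CLSPN in SW620 in 12 of 16, each keeping its sign, and the settings that lost them are given above. The number of the 10 genes passing in the difference between responses was 0 with DESeq2's size factors and in limma-voom and 2 with the exon length term, and in SW620 it was 3 in the separate fit. Leaving out each library gave 0 to 2 in the difference, 0 to 2 in SW480 and 0 to 1 in SW620. Over all genes the calls were 1073 without a filter and 1033 with the exon length term in SW480 (50 to 1367 with a library left out), 4545 in the separate fit of SW620 (787 to 3225 with a library left out), 1795 with the exon length term for the difference (421 to 2156 with a library left out) and 1266 without a filter over both lines (137 to 753 with a library left out).

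No label says that the replicate numbers pair the samples. Deviations from the group means correlated at 0.0265 between the 2 treatments in SW480 and at 0.0134 in SW620. With 2 libraries per group this cannot exclude a pairing. With the replicate block 95 genes passed over both lines, against 594 without it, and the block changed no call of the 10 genes. It gave more calls in SW480 (770 against 636), in SW620 (2648 against 2537) and for the difference (1435 against 1185).

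Signs turned only for values that did not pass. With the exon length term H2AX in SW620 was 0.043 and the ATM difference -0.034. With a library left out the log2 values ran, over both lines, from -0.14 to 0.049 for ATR, -0.018 to 0.085 for CHEK2, -0.087 to 0.11 for PRKDC and -0.012 to 0.059 for WEE1. In SW480 they ran from -0.58 to 0.026 for ATM, -0.16 to 0.27 for ATR, -0.11 to 0.15 for CHEK2 and -0.099 to 0.36 for PRKDC. In SW620 they ran from -0.35 to 0.043 for ATR, -0.079 to 0.031 for CHEK1, -0.056 to 0.14 for CHEK2 and -0.30 to 0.094 for PRKDC. For the difference they ran from -0.20 to 0.42 for ATM, -0.41 to 0.028 for ATR, -0.11 to 0.15 for CHEK2, -0.45 to 0.020 for PRKDC and -0.16 to 0.088 for TOPBP1. Between the untreated lines they ran from -0.20 to 0.41 for ATM, -0.11 to 0.33 for ATR and -0.16 to 0.062 for TOPBP1. With 2 libraries per group, a lone library left in a group was assumed to vary like the other groups.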
